A study of Homo sapiens with 16 samples.

Results

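The dual-specificity phosphatases (DUSPs) described here are 10 genes, DUSP1, DUSP2, DUSP4, DUSP5, DUSP6, DUSP7, DUSP8, DUSP10, DUSP14 and DUSP16. They were listed by name, with no cut on a measured value, and each matched 1 row of a count table of 30813 genes. RNA sequencing had been done on 16 libraries from the human melanoma lines A375 and 451Lu, with 2 libraries in each of 8 groups. All cells were drug-resistant derivatives, called DR A375 and 451Lu BR in the labels, so no library came from a drug-sensitive parent, and nothing says how many clones either derivative holds. DR A375 cells were kept on dabrafenib (0.5 µM), an inhibitor of mutant BRAF, with trametinib (0.05 µM), an inhibitor of the kinase MEK, or had these replaced by DMSO solvent for 6, 24 or 48 h. 451Lu BR cells were kept on dabrafenib (1 µM) or had it replaced by DMSO for 24, 72 or 120 h. The treatment notes name dabrafenib alone for 451Lu, whereas the source name calls the line resistant to both drugs. The groups are called on drug and 6, 24, 48, 72 or 120 h off drug, and the lines A375 and 451Lu.

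Mitogen-activated protein (MAP) kinases are switched on by phosphates on a threonine and a tyrosine, and DUSPs switch them off by removing both. The family's members differ in where they sit and what they act on. DUSP1, DUSP2, DUSP4 and DUSP5 are nuclear and are induced by growth signals, DUSP6 and DUSP7 are cytoplasmic and act mainly on ERK, and DUSP8, DUSP10 and DUSP16 act mainly on the stress kinases JNK and p38. DUSP14 is a small atypical phosphatase that lacks the MAP kinase binding domain of the others. In melanoma with active BRAF, DUSP4 and DUSP6 are widely used as transcript readouts of ERK activity, since ERK signalling induces the phosphatases that restrain it.

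Levels are given as CPM, counts scaled to a common library size with TMM factors over all 16 libraries. Changes are log2 fold changes with their standard errors (SE) from edgeR's quasi-likelihood test, fitted within each line, with p-values adjusted by Benjamini-Hochberg over all genes tested and a threshold of 0.05. Ratios of the printed CPM therefore differ slightly from the fitted folds. Library totals ran from 9714190 to 16691725 counts. Whether paired libraries come from different cultures is unstated. The p-values therefore reflect only how far such libraries spread, which may be technical. All 10 members passed the filter on low counts in A375 and 9 passed in 451Lu, where DUSP2 did not. All 8 melanocyte lineage markers had counts in each on-drug group. In A375 their summed level fell from between 5039 and 5160 CPM on drug to between 974 and 1066 CPM at 48 h. In 451Lu it fell from between 11240 and 11820 to between 1013 and 1146 CPM at 120 h. DCT was the largest part on drug in A375 (2960 CPM) and PMEL in 451Lu (9251 CPM). SOX10 moved little in A375, from 607 CPM on drug to 543 at 48 h. S100B in 451Lu fell from 78.3 CPM on drug to 37.7 at 24 h, and was 66.55 at 72 h and 70.7 at 120 h. Markers of other cell types, of which 9 of 14 are in the table, summed to between 24.9 and 25.1 CPM on drug and 5.52 to 5.81 CPM at 48 h in A375, and to 140.2 to 154 CPM on drug and 16.4 to 21.9 CPM at 120 h in 451Lu. On drug most of this was LUM, at 20.7 CPM in A375 and 145.5 in 451Lu, and at 120 h in 451Lu COL1A1 (7.87 CPM) was above LUM (6.07 CPM). The immune marker PTPRC had 82 counts in A375 on drug and 0 in every 451Lu group, and the epithelial marker EPCAM had at most 1 count in a group. The part of these markers in the results was not tested, and in bulk RNA fewer cells of a type and less RNA per cell cannot be told apart.

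Promoter sequence was available in RefSeq (build GRCh38.p14) for 8 of the 10 genes in 9 windows. DUSP4 and DUSP5 were not searched. The 250 bases before each RefSeq start were searched on both strands for 6 motifs, which were chosen after the sequences had been seen. Windows of 4 genes are shown because they set genes that rose beside genes that fell, with the matches in capitals. In DUSP1 (chr5:172771196-172771445, minus strand) the capitals mark a cyclic AMP response element (TGACGTCA), an E-box (CACGTG) and a TATA box (TATAAA). In DUSP8 (chr11:1572272-1572521, minus strand) they mark 2 cyclic AMP response elements and an ETS core (CGGAA). For DUSP6, 30 bases are given (chr12:89352634-89352663, minus strand), with an ETS core on each strand. They lie before the RefSeq start but inside the span of DUSP6 in the count table (chr12:89347232-89353271). By that annotation they are not upstream of the gene. The DUSP16 window (chr12:12562864-12563113, minus strand) has an ETS core near its end.
DUSP1: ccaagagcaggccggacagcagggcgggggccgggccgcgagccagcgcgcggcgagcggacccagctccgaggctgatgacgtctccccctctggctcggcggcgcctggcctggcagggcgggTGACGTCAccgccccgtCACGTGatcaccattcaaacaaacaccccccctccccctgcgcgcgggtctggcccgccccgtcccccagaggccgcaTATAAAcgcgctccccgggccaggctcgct
DUSP8: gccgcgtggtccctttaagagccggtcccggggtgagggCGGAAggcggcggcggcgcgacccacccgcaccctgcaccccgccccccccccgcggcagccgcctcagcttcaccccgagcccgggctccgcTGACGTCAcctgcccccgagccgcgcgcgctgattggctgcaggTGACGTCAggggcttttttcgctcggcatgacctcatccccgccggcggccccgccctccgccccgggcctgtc
DUSP6: tccggagCGGAAattcctTTCCGtttttgt
DUSP16: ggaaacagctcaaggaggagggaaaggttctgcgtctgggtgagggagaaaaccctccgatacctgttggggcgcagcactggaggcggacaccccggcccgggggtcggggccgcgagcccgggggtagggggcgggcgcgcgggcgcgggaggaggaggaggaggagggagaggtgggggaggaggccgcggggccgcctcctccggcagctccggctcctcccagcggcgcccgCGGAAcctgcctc
The cyclic AMP response element began 125 bases before the start of DUSP1 and 118 and 74 bases before that of DUSP8. Of 35116 promoter windows of this length, 1.65% held it. DUSP1 rose off drug and DUSP8 fell, so these promoters share the element while their transcripts moved in opposite directions. The ETS core, present in 30.3% of all windows, had 3 matches in DUSP6, at 155, 144 and 61 bases before its start, and 1 each in DUSP8 (211 bases before) and DUSP16 (13 bases before). DUSP6 rose, and the other 2 genes with the core fell in most comparisons. The E-box was also in DUSP2, 113 bases before its start, and in 6.35% of all windows, and the TATA box was in 10.7% of all. The AP-1 site (TGANTCA, in 6.57% of all windows) and the CArG box (in 1.16%) were in none of the 9 windows. The windows of DUSP7, DUSP10 and DUSP14, genes that rose off drug, held no match to any of the 6 motifs. A match describes these letters only.

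Nearly every member changed after drug withdrawal. Each line had a single on-drug group, with no on-drug libraries matched to the times off drug. Drug removal and time in culture therefore cannot be told apart. In A375 at 6, 24 and 48 h, 8 members were higher than on drug, namely DUSP1, DUSP2, DUSP4, DUSP5, DUSP6, DUSP7, DUSP10 and DUSP14, and 2 were lower, DUSP8 and DUSP16. All 10 of 10 members were called at each time, against 73.3%, 72.6% and 72.6% of all genes tested, of which 35.1%, 36.2% and 36.6% were higher and 38.1%, 36.3% and 36% lower. In 451Lu 7 of 9 tested members, these genes other than DUSP2, were higher at 24, 72 and 120 h, while DUSP16 was lower at all 3 times and DUSP8 at 24 and 120 h. Of all genes in 451Lu 54.1%, 67.7% and 73.8% were called, 29.2%, 34.2% and 37.3% being higher and 24.9%, 33.4% and 36.6% lower. Since most genes were called, being called is not particular to the members. Against a change of at least 1.5-fold (edgeR's glmTreat), 10, 7 and 9 of 10 members passed in A375, where 31.6%, 29.5% and 31.3% of all genes did, and 8, 8 and 7 of 9 in 451Lu, where 17.1%, 31.7% and 41.1% did. The median log2 fold change of the members was 1.66, 2.22 and 2.25 in A375, and 1.69, 1.47 and 1.48 in 451Lu. Over all genes tested the median lay between -0.06 and 0.03. In these 6 comparisons the libraries of the groups did not overlap for any member other than DUSP2 in 451Lu. The same held for 86.5%, 85.9% and 85.2% of all genes tested in A375 and for 76.9%, 84.2% and 86.7% in 451Lu, so it is common to most genes.

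**Figure D1:**
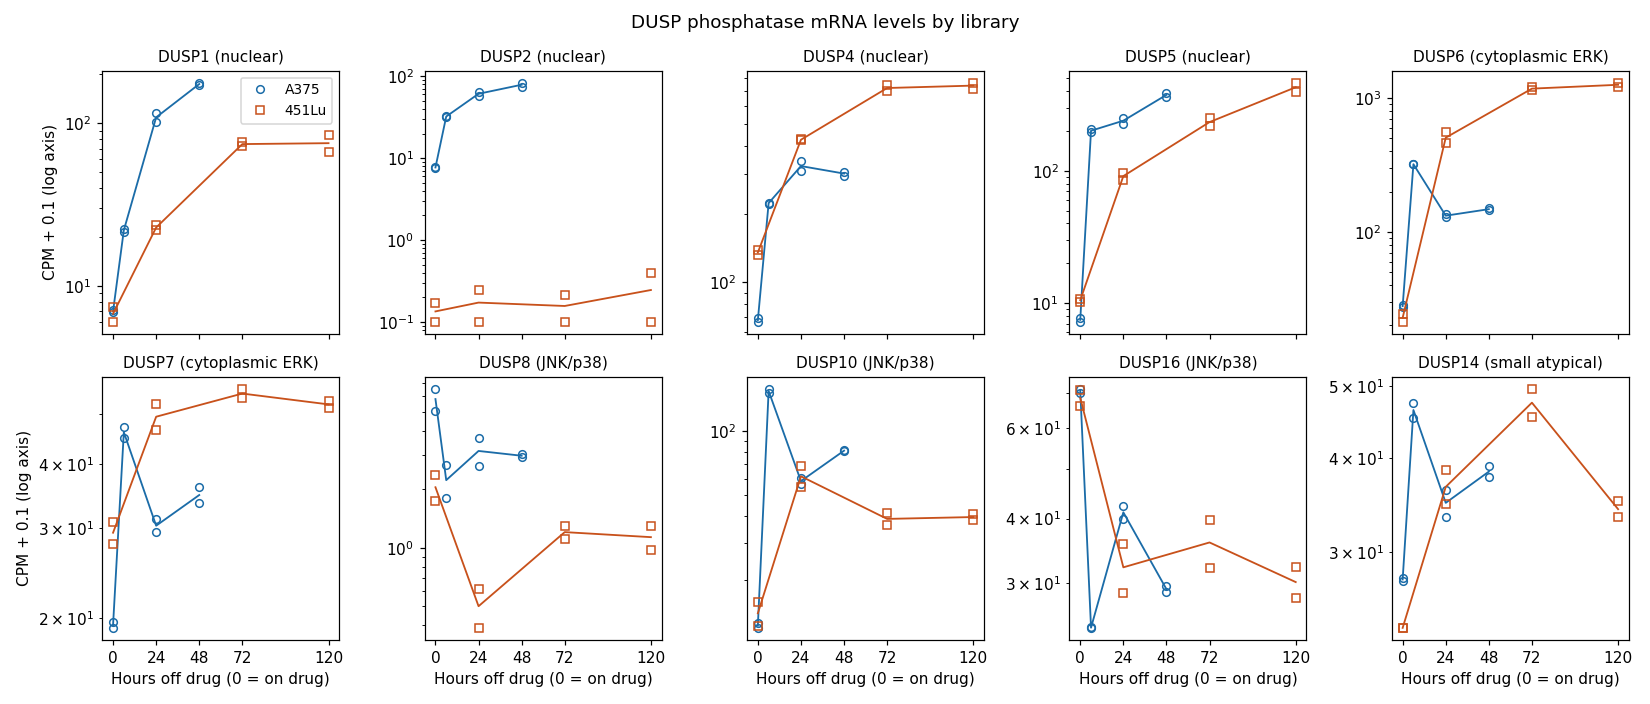
Each panel plots 1 gene's CPM plus 0.1 on a log axis against hours off drug, with 0 for on drug. Points are libraries (circles A375, squares 451Lu) and lines join group means, with 2 libraries a group. DUSP1 and DUSP5 keep climbing in A375 to 48 h, while DUSP6 and DUSP10 peak at 6 h there. DUSP2 is near 0 in all 451Lu libraries, and DUSP16 is highest on drug in both lines.

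Among the nuclear phosphatases, DUSP5 made the steepest rise. DUSP5 (ENSG00000138166, chr10:110497838-110511544) is an ERK-specific phosphatase that also holds ERK in the nucleus. On drug the A375 libraries had 7.12 and 7.62 CPM, followed by 205 and 196 CPM at 6 h, 251 and 227 at 24 h, and 363 and 386 at 48 h. The level was already far above on drug by 6 h and every later group was above the one before it. The log2 fold changes against on drug were 4.73 ± 0.08, 4.99 ± 0.08 and 5.64 ± 0.08, a 49.7-fold increase at 48 h (adjusted p = 5.42e-36). In 451Lu the libraries went from 10.7 and 10.2 CPM on drug to 96.5 and 85.6 at 24 h, 249 and 217 at 72 h, and 463 and 392 at 120 h. Here too no group overlapped the next. Against on drug the log2 fold changes were 3.16 ± 0.11, 4.49 ± 0.11 and 5.34 ± 0.11, or 40.6-fold at 120 h (adjusted p = 3.82e-16). The 451Lu libraries at 120 h were the highest of all groups for DUSP5, and those of A375 on drug the lowest.

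DUSP1 (ENSG00000120129, chr5:172768090-172771195), an immediate-early gene whose product acts on p38 and JNK as well as ERK, rose more slowly. The A375 libraries had 6.79 and 6.98 CPM on drug, 21.5 and 22.4 at 6 h, 116 and 101 at 24 h, and 171 and 178 at 48 h. Its log2 fold change grew from 1.63 ± 0.12 at 6 h to 3.95 ± 0.09 at 24 h and 4.63 ± 0.08 at 48 h (adjusted p = 2.08e-32). The 6 h change on the log2 scale was 35.3% of that at 48 h, against 84.0% for DUSP5. In 451Lu the libraries had 5.92 and 7.37 CPM on drug, 23.6 and 22.0 at 24 h, 76.2 and 72.7 at 72 h, and 84.1 and 66.7 at 120 h. The 72 and 120 h libraries overlapped, with log2 fold changes of 3.48 ± 0.13 at both times (adjusted p = 5.81e-13 and 2.92e-13). The on-drug libraries of the lines overlapped as well.

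DUSP4 (ENSG00000120875, chr8:29333064-29350668) is a nuclear phosphatase of ERK and JNK. The A375 libraries had 69.1 and 66.7 CPM on drug, 225 and 223 at 6 h, 344 and 309 at 24 h, and 296 and 309 at 48 h. Its fitted log2 fold changes were 1.68 ± 0.05, 2.23 ± 0.05 and 2.12 ± 0.05 (adjusted p = 9.90e-28 at 48 h). The 451Lu levels were 131 and 139 CPM on drug, 424 and 430 at 24 h, 743 and 704 at 72 h, and 719 and 763 at 120 h. The log2 fold changes of 1.69 ± 0.06, 2.42 ± 0.06 and 2.44 ± 0.06 were a 5.42-fold increase at 120 h (adjusted p = 4.14e-15). All off-drug 451Lu libraries were above all A375 libraries for this gene.

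DUSP2 (ENSG00000158050, chr2:96143166-96145440), a nuclear phosphatase best known from activated immune cells, was counted readily in A375 and hardly at all in 451Lu. Its A375 libraries had 7.45 and 7.75 CPM on drug, 32.7 and 31.7 at 6 h, 64.6 and 57.6 at 24 h, and 74.2 and 83.4 at 48 h. Against on drug the log2 fold changes were 2.05 ± 0.11, 2.98 ± 0.09 and 3.34 ± 0.09, or 10.1-fold at 48 h (adjusted p = 9.08e-27). The 8 libraries of 451Lu held 7 counts in all, with 0 to 3 in each, against 4580 counts in the 8 libraries of A375. Per library size the A375 level on drug was 242 times that of 451Lu, from 256 counts against 1, with a 95% interval of 43.1 to 9605 that covers counting error only. With so few counts no change of DUSP2 could be tested in 451Lu.

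The cytoplasmic ERK phosphatase DUSP6 (ENSG00000139318, chr12:89347232-89353271, minus strand) rose in both lines but followed different courses. The A375 libraries had 27.3 and 28.2 CPM on drug, 320 and 321 at 6 h, 128 and 136 at 24 h, and 151 and 145 at 48 h. The 6 h libraries were the highest in A375, and those at 24 and 48 h were lower but still above on drug. Its fitted log2 fold changes were 3.49 ± 0.06, 2.21 ± 0.06 and 2.38 ± 0.06. In 451Lu the libraries had 24.2 and 21.2 CPM on drug, 554 and 458 at 24 h, 1210 and 1144 at 72 h, and 1303 and 1212 at 120 h. The log2 fold changes were 4.51 ± 0.10, 5.70 ± 0.10 and 5.78 ± 0.10, a 55.0-fold increase at 120 h (adjusted p = 7.43e-17). Every off-drug 451Lu library was above every A375 library. A noncoding gene, ENSG00000274021, overlaps DUSP6, and the strand setting of the counting is not given. It held 289 counts over all libraries against 79244 for DUSP6, at most 5.67% of the DUSP6 count in a library.

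DUSP7 (ENSG00000164086, chr3:52048919-52056550), the other cytoplasmic ERK phosphatase here, moved less. The A375 libraries had 19.5 and 19.0 CPM on drug, 47.1 and 44.9 at 6 h, 31.1 and 29.3 at 24 h, and 33.4 and 35.9 at 48 h. As for DUSP6, the 6 h libraries were the highest of A375. Against on drug the log2 fold changes were 1.22 ± 0.08, 0.61 ± 0.08 and 0.81 ± 0.08 (adjusted p = 7.57e-16, 3.28e-08 and 9.88e-11). In 451Lu the levels were 27.8 and 30.6 CPM on drug, 52.3 and 46.4 at 24 h, 55.9 and 53.6 at 72 h, and 53.0 and 51.3 at 120 h. Its log2 fold changes there were 0.78 ± 0.08, 0.91 ± 0.09 and 0.82 ± 0.08, with adjusted p = 1.97e-07 at 120 h. The 24 and 120 h libraries of 451Lu overlapped.

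The phosphatases of JNK and p38 split, with DUSP10 higher and DUSP16 and DUSP8 lower off drug. DUSP10 (ENSG00000143507, chr1:221701424-221742176) had 12.5 and 11.8 CPM in A375 on drug, 151 and 158 at 6 h, 60.1 and 56.5 at 24 h, and 81.7 and 80.5 at 48 h. This was a peak at 6 h, a lower level at 24 h and an intermediate one at 48 h, with no overlap between groups. Its fitted log2 fold changes were 3.63 ± 0.07, 2.23 ± 0.08 and 2.70 ± 0.08 (adjusted p = 3.32e-31 at 6 h). The 451Lu libraries had 12.1 and 15.7 CPM on drug, 68.4 and 54.5 at 24 h, 41.1 and 36.3 at 72 h, and 40.7 and 38.3 at 120 h. The log2 fold changes of 2.17 ± 0.12, 1.47 ± 0.14 and 1.48 ± 0.13 were thus also largest at the earliest time sampled, which was 24 h in this line.

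DUSP16 (ENSG00000111266, chr12:12474210-12562383), which acts mainly on JNK, was highest on drug in both lines, as was DUSP8. The A375 libraries had 70.1 and 71.3 CPM on drug, 24.5 and 24.5 at 6 h, 39.9 and 42.2 at 24 h, and 29.5 and 28.7 at 48 h. Against on drug the log2 fold changes were -1.57 ± 0.07, -0.82 ± 0.06 and -1.31 ± 0.07, which was 2.96-fold lower at 6 h (adjusted p = 2.89e-20). In 451Lu the libraries had 66.2 and 70.8 CPM on drug, 28.6 and 35.6 at 24 h, 32.0 and 39.7 at 72 h, and 27.9 and 32.1 at 120 h. There the log2 fold changes were -1.07 ± 0.11, -0.93 ± 0.11 and -1.21 ± 0.11, with adjusted p = 3.85e-08 at 120 h. The 451Lu off-drug groups overlapped each other.

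DUSP8 (ENSG00000184545, chr11:1554044-1571920), the remaining phosphatase of JNK and p38, was the rarest member with a test in both lines, at 513 counts over 16 libraries. A375 libraries had 90 and 101 counts on drug (4.97 and 6.47 CPM), then 2.56 and 1.70 CPM at 6 h, 3.56 and 2.54 at 24 h, and 2.82 and 2.93 at 48 h. Its fitted log2 fold changes were -1.44 ± 0.23, -0.90 ± 0.20 and -1.01 ± 0.22 (adjusted p = 1.40e-06, 1.60e-04 and 9.89e-05). In 451Lu the libraries had 24 and 39 counts on drug (1.63 and 2.26 CPM), 4 and 6 counts at 24 h (0.287 and 0.514 CPM), 9 and 12 at 72 h, and 14 and 9 at 120 h. The log2 fold change was -2.27 ± 0.42 at 24 h (adjusted p = 2.47e-04). It was -0.82 ± 0.36 at 72 h, which missed the threshold (adjusted p = 0.0554, or 0.041 with no filter on low counts), and -0.92 ± 0.35 at 120 h (adjusted p = 0.0258). The 120 h call was lost with DESeq2 (adjusted p = 0.272), without on-drug replicate 2 (0.217) and without 120 h replicate 2 (0.133), where the log2 fold changes were -0.93, -0.66 and -0.77.

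DUSP14 (ENSG00000276023, chr17:37489831-37513501), the atypical member, had a narrow range. The A375 libraries had 27.6 and 27.3 CPM on drug, 47.4 and 45.2 at 6 h, 33.4 and 36.2 at 24 h, and 37.7 and 39.0 at 48 h. Its log2 fold changes of 0.71 ± 0.07, 0.30 ± 0.07 and 0.45 ± 0.08 all passed the threshold (adjusted p = 1.27e-10, 6.09e-04 and 3.43e-06), but only that at 6 h passed against 1.5-fold. The 451Lu levels were 23.7 and 23.7 CPM on drug, 38.5 and 34.6 at 24 h, 49.4 and 45.3 at 72 h, and 35.0 and 33.3 at 120 h. The log2 fold changes were 0.66 ± 0.09, 1.00 ± 0.09 and 0.51 ± 0.09, with adjusted p = 3.78e-08 at 72 h, where its level was highest in this line.

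**Figure D2:**
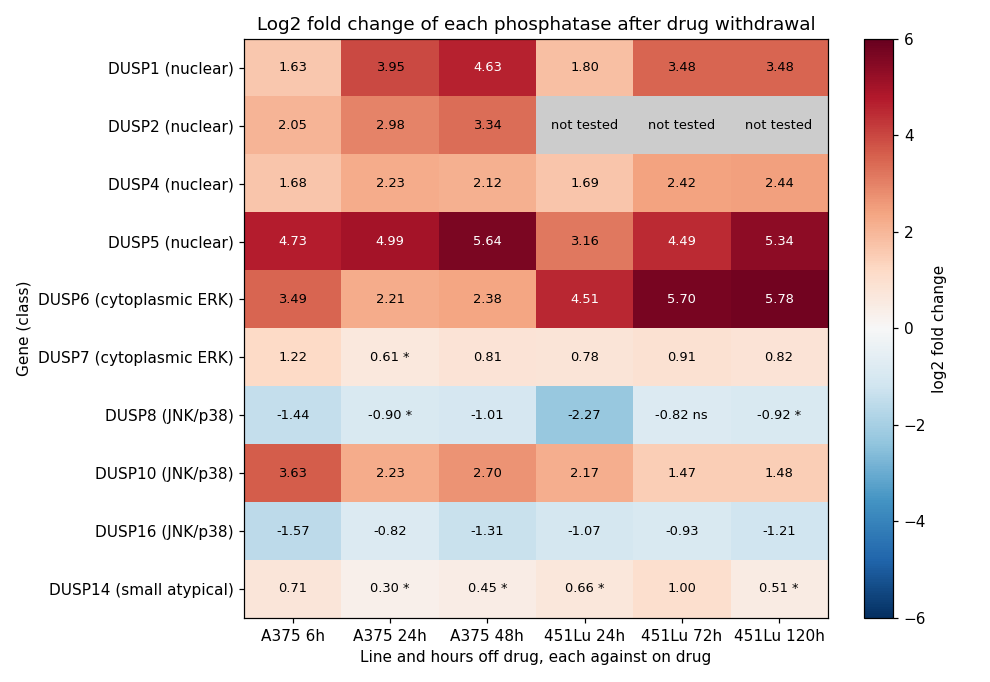
Colours and numbers give the fitted log2 fold change of each member (rows, with class) at each time off drug against on drug in the same line (columns). An asterisk marks a change that passed the threshold but not the test against 1.5-fold, ns marks one that missed the threshold (DUSP8, 451Lu, 72 h), and grey cells were not tested. DUSP5 and DUSP6 have the deepest red and DUSP8 and DUSP16 are blue throughout.

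By class, the 4 nuclear phosphatases were all higher at each time in A375, with a median log2 fold change of 1.86, 3.47 and 3.99 at 6, 24 and 48 h. The 3 tested in 451Lu were also all higher, with medians of 1.80, 3.48 and 3.48 at 24, 72 and 120 h. Both cytoplasmic ERK phosphatases were higher throughout, with medians of 2.35, 1.41 and 1.60 in A375 and 2.65, 3.30 and 3.30 in 451Lu. Of the 3 JNK and p38 phosphatases, 1 was higher and 2 lower at each time in A375 and at 24 and 120 h in 451Lu, with medians of -1.44, -0.82 and -1.01, and of -1.07, -0.82 and -0.92. DUSP10 thus shared its direction with the ERK phosphatases and not with the other 2 genes of its class. Of all genes tested, 72.6% to 73.3% were called in A375 and 54.1% to 73.8% in 451Lu, in either direction. The classes hold 1 to 4 genes, so these counts and medians are descriptions.

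The steps between consecutive off-drug times separated the members further. From 6 to 24 h in A375, DUSP1 rose by a log2 fold change of 2.32 ± 0.07, DUSP2 by 0.93 ± 0.08, DUSP4 by 0.55 ± 0.05 and DUSP5 by 0.26 ± 0.05. All 4 nuclear phosphatases thus rose further. Over the same step DUSP6 fell with a log2 fold change of -1.28 ± 0.05, DUSP10 with -1.40 ± 0.06, DUSP7 with -0.60 ± 0.07 and DUSP14 with -0.42 ± 0.07 (adjusted p = 4.21e-22, 1.48e-21, 8.62e-09 and 5.09e-06). DUSP16 rose by 0.74 ± 0.08, back toward its on-drug level, and DUSP8 had a log2 fold change of 0.54 ± 0.27 (adjusted p = 0.0738). With a library left out the DUSP8 value ran from 0.25 to 0.87, and it passed the threshold without 6 h replicate 1 (adjusted p = 0.0378) and without 24 h replicate 2 (0.0304). In all 9 of 10 members were called (5 higher, 4 lower), where 69.8% of all genes were (35.5% higher, 34.2% lower). Against 1.5-fold 5 members passed, DUSP1, DUSP2 and DUSP16 higher and DUSP6 and DUSP10 lower, where 28.2% of all genes did.

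From 24 to 48 h in A375 the changes were smaller. DUSP1 rose by 0.68 ± 0.05, DUSP5 by 0.65 ± 0.05, DUSP10 by 0.47 ± 0.06 and DUSP2 by 0.36 ± 0.07, while DUSP16 had a log2 fold change of -0.49 ± 0.07 (adjusted p = 3.96e-06). DUSP6 had 0.17 ± 0.05 (adjusted p = 0.0118), a call that was lost with DESeq2 (0.079), without the filter on low counts (0.0723), in a fit of all 16 libraries (0.106), without 24 h replicate 1 (0.209) and without 48 h replicate 1 (0.0717). DUSP4 (-0.11 ± 0.05, adjusted p = 0.0795) passed the threshold only without 24 h replicate 2 (0.0117) or 48 h replicate 2 (0.0163), and DUSP7 (0.20 ± 0.08, adjusted p = 0.0529) only without 48 h replicate 1 (0.0484). In all 6 of 10 members were called, where 29.9% of all genes were, and 0 passed against 1.5-fold, where 1.49% did.

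In 451Lu from 24 to 72 h, DUSP1 rose by 1.68 ± 0.11, DUSP5 by 1.33 ± 0.09, DUSP6 by 1.19 ± 0.08, DUSP4 by 0.74 ± 0.06 and DUSP14 by 0.34 ± 0.09. DUSP10 fell, with a log2 fold change of -0.70 ± 0.12 (adjusted p = 1.07e-04). DUSP6 thus rose over this step in 451Lu, whereas in A375, sampled at other times, it was lower at 24 h than at 6 h. DUSP8 was called higher (1.45 ± 0.52, adjusted p = 0.028) from 10 counts at 24 h, a call lost with DESeq2 (0.15), without 24 h replicate 1 (0.2), and without 72 h replicate 1 (0.0618) or 2 (0.141). In all 7 of 9 tested members were called, where 51.4% of all genes were, and 4 passed against 1.5-fold, where 12.8% did. From 72 to 120 h the 2 of 9 members called were DUSP5, with 0.86 ± 0.08, and DUSP14, with -0.49 ± 0.09 (adjusted p = 5.05e-04), where 32.7% of all genes were. DUSP16 missed the threshold over this step (-0.28 ± 0.12, adjusted p = 0.0913) but was called lower with the replicate number as a block (adjusted p = 0.02), with no filter on low counts (0.0428), without 72 h replicate 1 (0.0293) and without 120 h replicate 2 (0.0324), which makes 3 members. DUSP5 was the 1 member past 1.5-fold over this step, where 3.97% of all genes were. DUSP1, DUSP4, DUSP6 and DUSP10 had log2 fold changes between 0.00 and 0.08 over that last step.

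The lines were compared on drug in a fit of all 16 libraries. DUSP4 was higher in 451Lu by a log2 fold change of 0.99 ± 0.06 (adjusted p = 4.64e-14), DUSP7 by 0.60 ± 0.08 and DUSP5 by 0.50 ± 0.15. DUSP8 was lower in 451Lu, with -1.52 ± 0.23 (adjusted p = 1.12e-06), and so was DUSP2, with 1 count against 256. DUSP6 (-0.30 ± 0.10, adjusted p = 0.00822) and DUSP14 (-0.22 ± 0.08, adjusted p = 0.0172) were slightly lower. The DUSP5 call was lost without A375 on-drug replicate 1 (adjusted p = 0.0527) and the DUSP6 call without 451Lu on-drug replicate 2 (-0.19, adjusted p = 0.164). That of DUSP14 was lost without A375 on-drug replicate 2 (0.0512), and without 451Lu on-drug replicate 1 (0.0642) or 2 (0.0772). DUSP1 (-0.04 ± 0.17), DUSP10 (0.20 ± 0.13) and DUSP16 (-0.04 ± 0.08) missed the threshold, which DUSP10 passed without 451Lu on-drug replicate 1 (0.37, adjusted p = 0.0228). In all 7 of 10 members were called, where 77.2% of all genes were, and 3 passed against 1.5-fold, where 45.6% did, so the members' share was near or below that of all genes. The lines also differ in their drugs and doses, so cell line and drug regimen cannot be told apart.

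The only off-drug time sampled in both lines was 24 h, and the difference between their 24 h changes was tested as an interaction in the joint fit. DUSP6 rose more in 451Lu, by a log2 difference of 2.24 ± 0.12 (adjusted p = 3.42e-14), a 4.71-fold larger increase. DUSP1 rose more in A375, with -2.22 ± 0.20 for 451Lu minus A375 (adjusted p = 6.78e-10), as did DUSP5 with -1.89 ± 0.17 (adjusted p = 9.56e-10) and DUSP4 with -0.61 ± 0.08 (adjusted p = 5.87e-07). DUSP6 and these 3 of the 4 nuclear genes thus differed between the lines in opposite directions, and DUSP2, with 0 to 3 counts in each 451Lu library, missed the threshold (adjusted p = 0.549). For DUSP10 the difference was -0.12 ± 0.16 (adjusted p = 0.563) and for DUSP7 0.11 ± 0.12 (adjusted p = 0.48), both short of the threshold. In all 7 of 10 members were called, where 49.4% of all genes were, and DUSP1, DUSP5 and DUSP6 passed against 1.5-fold, where 17.6% did. The calls of DUSP8 (-1.44 ± 0.51), DUSP14 (0.30 ± 0.11) and DUSP16 (-0.32 ± 0.12) were lost with DESeq2, leaving 4 members, and the same count of 4 was left without A375 on-drug replicate 1, A375 24 h replicate 1, 451Lu on-drug replicate 2 or 451Lu 24 h replicate 1. Without the last of these the DUSP16 difference was -0.15. Drug combination, dose and line all differ here and cannot be told apart.

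**Figure D3:**
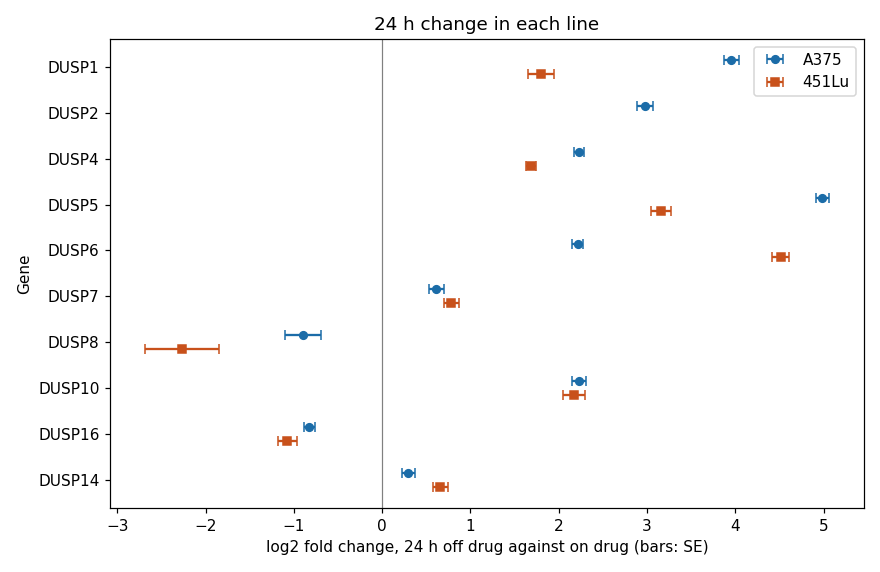
Points give the log2 fold change at 24 h off drug against on drug for each member, circles for A375 and squares for 451Lu, and bars give the SE from each line's fit of 4 groups of 2 libraries. DUSP6 lies to the right in 451Lu (4.51 against 2.21), DUSP1 and DUSP5 lie to the right in A375 (3.95 against 1.80 and 4.99 against 3.16), and DUSP10 nearly coincides (2.23 and 2.17). DUSP2 has a point in A375 only.

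To compare levels between genes, CPM were divided by the length of each gene's merged exons in GENCODE 29, giving CPM per kb. The authors' annotation release is not given, so these lengths may differ from theirs. The summed level of the 10 genes was 57.7 ± 0.286 CPM per kb (SD, n = 2) in A375 on drug and 289 ± 1.73, 297 ± 16.7 and 399 ± 12.3 at 6, 24 and 48 h. In 451Lu it was 62.6 ± 2.52 on drug and 264 ± 21.9, 528 ± 25.4 and 616 ± 35.4 at 24, 72 and 120 h. On drug the DUSP16 transcript made up 21.4% of the A375 sum, DUSP14 19.1% and DUSP4 16.2%. In 451Lu on drug DUSP4 led with 29.8%, before DUSP16 with 19.1% and DUSP14 with 15.1%. At 6 h in A375 DUSP5 held 26.6%, DUSP6 24.0% and DUSP10 18.4%, and at 48 h DUSP5 held 35.9%, DUSP1 21.7%, DUSP4 10.45%, DUSP2 10.2% and DUSP6 8.01%. In 451Lu DUSP6 held 41.2%, 48.1% and 44.1% at 24, 72 and 120 h, and DUSP5 13.2%, 16.9% and 26.5%. DUSP16 fell to 1.28% at 48 h in A375 and to 0.855% at 120 h in 451Lu. These are shares of transcript and do not measure protein or phosphatase activity.

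**Figure D4:**
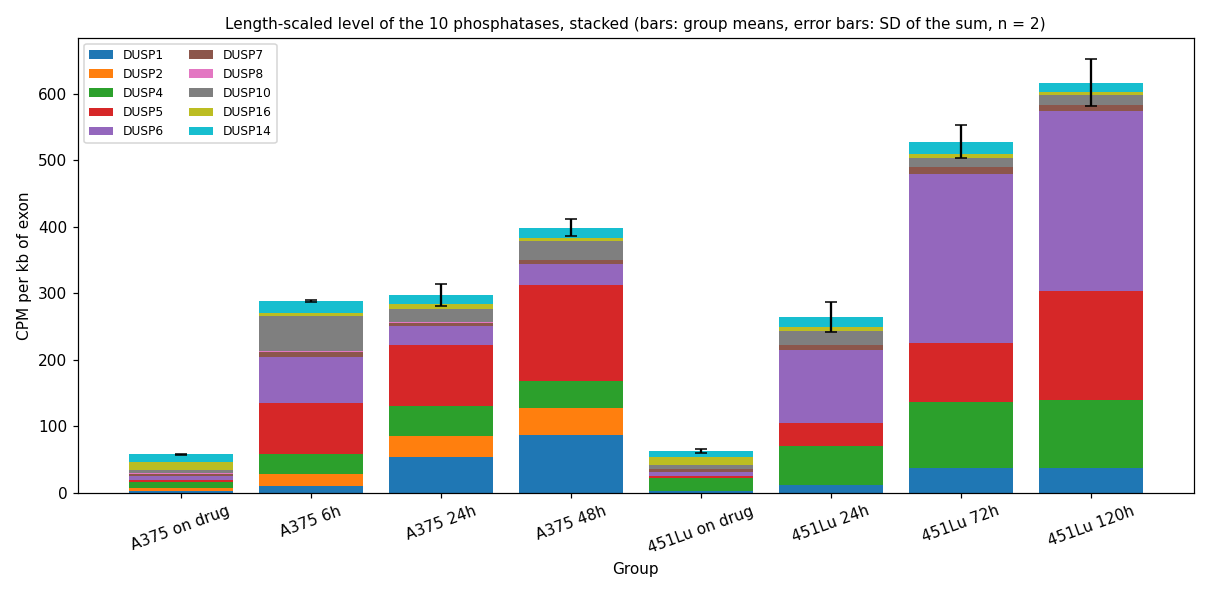
Stacked bars give the mean CPM per kb of exon of each member in each group, and error bars the SD of the sum over 2 libraries. The sum rises from about the same on-drug level in both lines (57.7 and 62.6) to 399 in A375 at 48 h, with DUSP5 and DUSP1 as the widest bands, and to 616 in 451Lu at 120 h, with DUSP6 as the widest.

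Ratios of counts within a library need no scaling between libraries, and how they move over time does not depend on gene length. DUSP6 over DUSP5 was 3.84 and 3.71 in A375 on drug, 1.56 and 1.64 at 6 h, 0.512 and 0.598 at 24 h, and 0.416 and 0.375 at 48 h. In 451Lu it was 2.27 and 2.09 on drug, 5.74 and 5.36 at 24 h, 4.86 and 5.27 at 72 h, and 2.82 and 3.09 at 120 h. The ratio fell below its on-drug value at every time in A375 and was above it at every time in 451Lu. DUSP6 over DUSP1 went from 4.02 and 4.05 on drug to 14.9 and 14.4 at 6 h and 0.883 and 0.813 at 48 h in A375. Its group mean in 451Lu was 3.48 on drug and 22.2, 15.8 and 16.8 at 24, 72 and 120 h. DUSP10 over DUSP16 was higher off drug in both lines. Its group mean in A375 was 0.172 on drug, 6.32 at 6 h, 1.42 at 24 h and 2.79 at 48 h. In 451Lu it was 0.202 on drug and 1.96, 1.10 and 1.32 off drug. The 451Lu libraries at 72 h had 1.28 and 0.915. No off-drug library of either line overlapped an on-drug one in this ratio. That follows from the levels above, where DUSP10 was higher and DUSP16 lower in every off-drug library, and adds no further evidence.

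**Figure D5:**
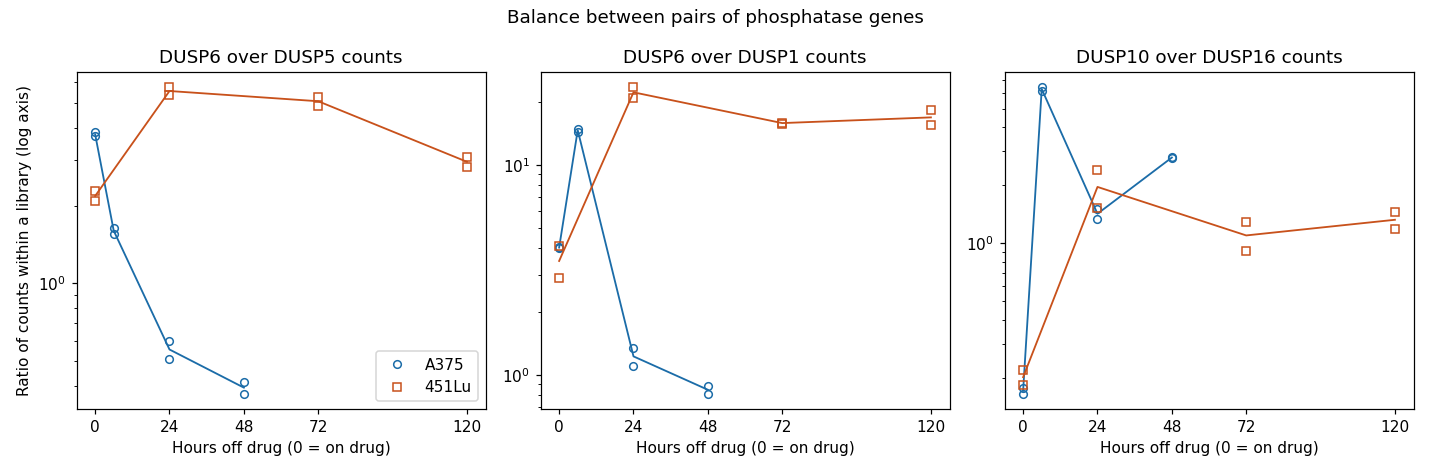
Each panel plots the ratio of the counts of 2 genes within a library on a log axis against hours off drug, with points for libraries and lines for group means (circles A375, squares 451Lu). DUSP6 over DUSP5 falls in A375 to 0.395 at 48 h and rises in 451Lu to 5.55 at 24 h. DUSP10 over DUSP16 has group means of 0.172 and 0.202 on drug and of at least 1.10 off drug.

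Over the 8 group means of log2 CPM, each line centred on its own mean, the members' courses fell together to different degrees. Pairs were compared among members tested in both lines whose centred values spanned at least 1, which leaves out DUSP14. Of these, DUSP4 and DUSP5 had the highest Pearson r, 0.98. DUSP1 followed DUSP4 (0.93) and DUSP5 (0.91) more closely than DUSP10 (0.58). DUSP10 was most like DUSP7 (0.95), and DUSP16 ran against both, with -0.96 for DUSP10 and -0.97 for DUSP7. These values describe 8 points that share the on-drug groups. Over the same points and 7363 genes, the genes named as most like DUSP6 were TRIB1 (r = 0.9974), a pseudokinase gene, and FGF5 (0.9971), a growth factor gene. TRIB1 went from 19.2 CPM on drug to 111 at 6 h and 77.7 at 48 h in A375, and from 13.3 to 308 CPM at 120 h in 451Lu. FGF5 stayed low, at no more than 3.26 CPM in any group mean. For DUSP4 the nearest were SLC35E4 (0.9962), USP53 (0.9959) and the integrin gene ITGA3 (0.9945), which went from 16.3 to 472 CPM at 24 h in A375. For DUSP5 they were EDEM1 (0.9949) and the noncoding genes RP5-907D15.4 (0.9941) and LINC00941 (0.9924). For DUSP10 they were the nucleoporin gene NUPL1 (0.9978), KRR1 (0.9908) and PPP1R15A (0.9836), a stress-induced phosphatase regulator gene. PPP1R15A had 16.1 CPM on drug and 89.5 at 6 h in A375, and 60.1 and 197 CPM on drug and at 24 h in 451Lu.

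Other genes that ERK signalling is known to induce moved in both directions. Of 8 such genes outside the family, 6 rose and 1 fell at 6 h in A375 and 7 rose and 1 fell at 24 and 48 h, with medians of 1.76, 1.78 and 2.02. In 451Lu 5 rose and 3 fell at 24 h, 4 and 3 at 72 h, and 4 and 2 at 120 h, with medians of 1.16, 1.62 and 1.62. Of all genes tested 73.3%, 72.6% and 72.6% were called in A375 and 54.1%, 67.7% and 73.8% in 451Lu. In A375 35.1% to 36.6% were higher and 36% to 38.1% lower. The shares in 451Lu were 29.2% to 37.3% higher and 24.9% to 36.6% lower. The 4 listed ERK output genes that rose in every comparison were CCND1, which encodes cyclin D1, PHLDA1, and the receptor signalling inhibitors SPRY2 and SPRY4. CCND1 was 12.4-fold higher at 48 h in A375 and 11.8-fold at 120 h in 451Lu, PHLDA1 4.64-fold and 12.8-fold, SPRY2 4.24-fold and 8.84-fold, and SPRY4 6.69-fold and 11.3-fold. ETV5, an ETS factor gene, fell in every comparison with on drug (-1.15 ± 0.06 in A375 at 48 h, -0.74 ± 0.09 in 451Lu at 120 h). Its relative ETV4 rose at 24 and 48 h in A375 (1.29 ± 0.06 and 1.11 ± 0.06), and in 451Lu was called only at 24 h (0.33 ± 0.10). The Eph receptor gene EPHA2 rose in A375 (1.52 ± 0.09 at 48 h, to 47.3 CPM) and fell in 451Lu, from 4.91 CPM on drug to 0.666 at 24 h and 0.048 at 120 h. EPHA4 rose in A375 (1.96 ± 0.22 at 48 h) and fell in 451Lu at 24 and 72 h (-0.90 ± 0.10 and -0.37 ± 0.10).

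Genes of the kinases that the phosphatases act on rose and fell in similar numbers. Of 9 MAP kinase genes tested in A375, 5 rose and 4 fell at 48 h, with a median log2 fold change of 0.21, and of 10 tested in 451Lu 5 rose and 4 fell at 120 h, with a median of 0.00. Against 1.5-fold 3 were higher and 1 lower in each line, where 31.3% and 41.1% of all genes passed. At these times 72.6% and 73.8% of all genes were called. MAPK8, which encodes the JNK1 kinase, was higher by 0.90 ± 0.08 and 0.94 ± 0.09, and the p38 gene MAPK11 by 0.99 ± 0.09 and 0.87 ± 0.09. Among 7 MAP kinase kinases, 3 rose and 4 fell at 48 h in A375, and 2 rose and 2 fell at 120 h in 451Lu. MAP2K1, which encodes MEK1, rose 3.05-fold and 2.99-fold, and MAP2K3, an activator of p38, 2.36-fold and 1.78-fold. MAP2K6, another activator of p38, fell from 15.6 to 1.79 CPM in A375 and from 9.84 to 0.284 CPM in 451Lu. Of 7 tested scaffold genes 2 rose and 2 fell at 48 h in A375, and 3 rose and 3 fell at 120 h in 451Lu. PEA15, which keeps ERK in the cytoplasm, was higher at 48 h in A375 (0.59 ± 0.05) and lower at 120 h in 451Lu (-0.44 ± 0.07), LAMTOR3 was lower in both (-0.98 ± 0.09 and -0.56 ± 0.10), and SPAG9, a JNK scaffold, was higher at 48 h in A375 (0.48 ± 0.04) and had 0.12 ± 0.06 at 120 h in 451Lu.

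Other phosphatases changed in both directions. Of 13 further dual-specificity phosphatases tested in A375, 7 rose and 4 fell at 48 h, with a median log2 fold change of 0.19, and of 14 in 451Lu 5 rose and 6 fell at 120 h, with a median of -0.14. Against 1.5-fold 6 of 13 and 6 of 14 passed, where 31.3% and 41.1% of all genes did. At these times 72.6% and 73.8% of all genes were called. DUSP22 was lower in both lines (-1.36 ± 0.08 and -0.57 ± 0.09), STYXL1, a catalytically inactive relative, was higher (0.72 ± 0.08 and 0.60 ± 0.07), and DUSP23 rose in A375 (1.03 ± 0.10) but not past the threshold in 451Lu (0.04 ± 0.16, adjusted p = 0.813). Of 7 tested phosphatases of other families that act on MAP kinases, 4 rose and 1 fell at 48 h in A375, and 2 rose and 3 fell at 120 h in 451Lu. PPP2CB, a catalytic subunit of protein phosphatase 2A, was higher by 0.68 ± 0.05 and 0.49 ± 0.06. PPM1J was higher by 2.65 ± 0.18 and 1.61 ± 0.33, from no more than 1.81 CPM on drug. PPM1A was higher in A375 (0.62 ± 0.07) and lower in 451Lu (-0.38 ± 0.07). Beside these changes 8 of 8 lineage markers were called lower at 48 h in A375 and 7 of 8 at 120 h in 451Lu. Of all genes 36% and 36.6% were called lower there. MITF fell 9.28-fold at 48 h in A375 and 2.103-fold at 120 h in 451Lu. MLANA fell from 263 to 12.2 and from 622 to 4.36 CPM, and DCT from 2960 to 94.4 and from 137 to 0.230 CPM. Of the markers of other cell types, COL1A1 rose to 1.61 CPM at 48 h in A375 and 7.87 CPM at 120 h in 451Lu, and LUM fell from 20.7 to 2.57 and from 146 to 6.07 CPM. PTPRC fell from 2.40 to 0.174 CPM in A375, and the part of these genes in the phosphatase results was not tested.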

How the data were processed

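Total RNA of 16 libraries had been sequenced. Per the submitters' processing notes, reads were aligned with TopHat2 2.1.0 and Bowtie 1.0.0 to GRCh38. The deposited table holds raw counts per Ensembl gene for 30813 genes, with symbols and coordinates, in 16 columns, 1 per library. The counting tool, its strand setting, the annotation release and gene filtering are not given in the sources used, and overlapping genes on opposite strands may share counts. Library totals of 9714190 to 16691725 counts limit precision most for DUSP8 and DUSP2. Replicate libraries differed by more than sampling noise in all groups (chi-square per degree of freedom 1.27 to 5.61), so each was counted once.

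Counts were tested with edgeR 4.0.16 (R 4.3.3): filterByExpr (minimum count 10, minimum total 15), TMM, glmQLFit and glmQLFTest, 1 fit per line with 4 groups (14449 genes in A375, 13851 in 451Lu), and a joint fit of 8 groups (15481 genes) for contrasts between lines. P-values were adjusted by Benjamini-Hochberg at 0.05. SE was obtained from the log2 fold change and the F statistic (change over root F). The script was tested on simulated data. Alternatives were RLE size factors, no filter, DESeq2 1.42.0, glmTreat against 1.5-fold, the replicate number as a block, all 16 libraries in one fit, and leaving out each library. Lengths came from GENCODE 29 and promoters from RefSeq.

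The members and the gene lists were chosen with earlier results of these data known. Genes named were all members, every listed ERK output gene, up to 3 genes of each other list with the smallest adjusted p at the last time of either line, and the 3 genes outside the family most like DUSP4, DUSP5, DUSP6 and DUSP10 over the 8 group means of log2 CPM (prior count 2, centred by line, span at least 1). Of the genes this rule names, 2 are not reported here.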

Additional observations from a re-analysis of the deposited data

Results flagged for a closer look

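The 24 h response to drug withdrawal differed between the lines for 7 members, by the interaction term of edgeR's quasi-likelihood test, given as 451Lu minus A375 on the log2 scale, where 49.4% of all genes tested also differed. DUSP6 rose more in 451Lu, with 2.24 (adjusted p = 3.42e-14), from a log2 fold change of 4.51 against 2.21. DUSP1, with -2.22 (adjusted p = 6.78e-10), DUSP5, with -1.89 (adjusted p = 9.56e-10), and DUSP4, with -0.61 (adjusted p = 5.87e-07), rose more in A375. DUSP8 differed by -1.44 (adjusted p = 0.0209), DUSP16 by -0.32 (adjusted p = 0.0351) and DUSP14 by 0.30 (adjusted p = 0.0295), and these 3 calls were lost with DESeq2 (adjusted p = 0.117, 0.157 and 0.123). For each of these genes both 24 h libraries lay on the same side of the on-drug libraries of their line. The same held for 85.9% of all genes tested in A375 and 76.9% in 451Lu, so it is common to most genes. Line, drugs and dose differ together and cannot be told apart.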

How the results depend on the processing

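Against a change of 1.5-fold, fewer genes were called than the 4318 to 11955 of the test against 0. In A375 these were 4566, 4257 and 4525 genes at 6, 24 and 48 h against on drug, 4081 from 6 to 24 h and 215 from 24 to 48 h. In 451Lu they were 2373, 4387 and 5688 genes at 24, 72 and 120 h, 1768 from 24 to 72 h and 550 from 72 to 120 h, and between lines 7054 on drug and 2722 for the 24 h difference. Members called against 1.5-fold were 5 and 0 over the A375 steps, 4 and 1 over the 451Lu steps, and 3 and 3 between lines. DESeq2 called 2223 genes (849 higher, 1374 lower) from 24 to 48 h in A375, where edgeR called 4318 (2048 and 2270), and 2959 from 72 to 120 h in 451Lu, where edgeR called 4531. Leaving out each library in turn gave 2851 to 4052 genes for that last step, with the lowest without 72 h replicate 2. For the 24 h difference between lines, 7 members were called, 4 with DESeq2 and 4 to 7 with a library left out.

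Signs turned only for values that missed the threshold, and the cause was not tested. With each library left out in turn, log2 fold changes ran from -0.31 to 0.17 for DUSP8 from 24 to 48 h in A375 and from -0.019 to 0.30 for DUSP16 from 24 to 72 h in 451Lu. From 72 to 120 h they ran from -0.18 to 0.14 for DUSP1, -0.042 to 0.061 for DUSP4, -0.37 to 0.079 for DUSP8 and -0.092 to 0.11 for DUSP10, and DESeq2 gave DUSP1 -0.0024. On drug between lines they ran from -0.21 to 0.11 for DUSP1 and -0.088 to 0.0097 for DUSP16, and for the 24 h difference from -5.07 to 0.16 for DUSP2 and -0.29 to 0.079 for DUSP10.

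Whether replicate numbers mark shared cultures or days is not given. Deviations of same-numbered libraries correlated between -0.04 and 0.02 in A375, and in 451Lu between -0.02 and 0.01 with the on-drug group and 0.13 to 0.14 among the 3 off-drug groups, which is a hint of shared deviations among those 3 groups. The libraries were not treated as pairs. With the replicate number as a block, 10473, 10340 and 10373 genes were called in A375 and 7840, 9632 and 10435 in 451Lu against on drug, and no count of genes moved by over 1.5 times. In that fit DUSP1 had -0.002 from 72 to 120 h and 0.018 on drug between lines, DUSP14 missed the threshold on drug between lines, and DUSP16 passed it from 72 to 120 h.

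RLE size factors, no filter and a joint fit of all libraries moved no count of genes or members by over 1.5 times. Depth limits DUSP8 in 451Lu (4 to 39 counts a library) and DUSP2 there (0 to 3).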

Other observations

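The noncoding gene that overlaps DUSP6, ENSG00000274021, did not follow the course of DUSP6 in A375. Its counts in the 2 libraries were 22 and 25 on drug, 26 and 21 at 6 h, 9 and 9 at 24 h and 7 and 5 at 48 h, while DUSP6 had 495 and 441 counts on drug and 1716 and 1676 at 48 h. As a percentage of the DUSP6 count this was 4.44 and 5.67 on drug and 0.408 and 0.298 at 48 h. In 451Lu it had 5 and 6 counts on drug and 54 and 40 at 120 h, beside 356 and 365 and then 15210 and 12559 for DUSP6. These counts carry no test, and how strand was handled in the counting is not given. Pseudogenes of the family held few counts over all libraries: 90 for DUSP5P1, 181 for DUSP8P5 and 2 for DUSP8P3, against 513 for DUSP8.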
